A study of Homo sapiens with 21 samples.

Results

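The 10 genes described here encode subunits of activator protein 1 (AP-1) or close relatives: FOS, FOSB, FOSL1, FOSL2, JUN, JUNB, JUND, ATF3, BATF and MAFF. They were chosen by symbol, as the rows whose Ensembl identifier maps to these names. The rule uses no measured value, but the list was set with earlier results of these data known. They are 10 of the 54042 genes in the table, and all 10 passed the filter on low counts that left 11610 genes for testing.

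AP-1 is a pair of basic leucine zipper (bZIP) proteins that grip DNA together, most often a JUN protein joined to a FOS protein. JUN proteins can also pair with each other, whereas FOS proteins need a JUN partner, and ATF3 and BATF join JUN proteins to make pairs with other site preferences. MAFF is a small MAF protein that lacks an activation domain and pairs with NRF2 and its relatives at antioxidant genes. FOS, JUN and ATF3 are known as immediate early genes, whose transcripts rise within minutes to hours of growth signals or stress, and in myeloid cells AP-1 is known for its part in monocyte differentiation and inflammatory genes.

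The libraries counted transcript 3′ ends in MV4-11, an established human leukaemia line that the labels describe as biphenotypic, B-lymphoid and myelomonocytic. Wild type cells received DMSO, the solvent, or ironomycin (AM5), a small molecule derived from salinomycin, for 6 h or 24 h. Cells with a CRISPR knockout (KO) of HK2, a hexokinase, or of PGP, a phosphoglycolate phosphatase, received DMSO or ironomycin for 24 h. This makes 7 groups of 3 libraries, all of the same line, and the labels do not tie the DMSO libraries to either time and give no dose, no edited site and no word on whether a knockout line is 1 clone. Nothing says that the replicates were separate cultures, and the p-values therefore cover only the variation among these samples, which may be technical.

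The libraries held 3829274 to 6069264 counts each (median 4823817). Levels are given as CPM, counts divided by the scaled size of the library, on which 3 counts equal 0.498 to 0.803 CPM. Replicate 2 of wild type at 6 h stood apart: the SD over genes of its log2 difference from the other 2 libraries of its group (their mean) was 0.66, against 0.321 to 0.469 for the other libraries. Of 15 myelomonocytic markers 12 were tested; FLT3 and CD33 stood at 287 ± 27.0 and 81.9 ± 0.878 CPM in wild type DMSO (mean ± SD, n = 3), while LYZ had 17 counts and CD14 had 1 over that group and CD68 was at 0 in every group. The list's summed level was 1250 to 1610 CPM in wild type DMSO, 1040 to 1230 CPM at 6 h and 1150 CPM at 24 h. FCGR1A was called higher and PRTN3 lower at both times, and MPO was called lower at 24 h (12.6 ± 0.624 CPM in DMSO and 5.51 ± 2.28 CPM at 24 h). HK2 tags stood at 22.0 ± 2.49 CPM in HK2 KO DMSO and 52.6 ± 14.7 CPM in wild type DMSO (edgeR adjusted p = 0.121). PGP tags stood at 75.4 ± 7.10 CPM in PGP KO DMSO and 90.6 ± 4.49 CPM in wild type DMSO (edgeR adjusted p = 0.879), and a 3′ tag need not report an edit, so the knockouts are named by their labels only. The share of counts from mitochondrial messenger RNAs was 5.72% ± 1.02 in wild type DMSO, 3.97% ± 0.815 after 6 h and 2.36% ± 0.505 after 24 h. The nuclear RNA MALAT1 gave 0.254% ± 0.0649, 0.344% ± 0.101 and 0.646% ± 0.0993 in the same order. The mitochondrial share was also lower and the MALAT1 share higher at 24 h in both knockouts (means of 6.37% against 3.09% and 0.341% against 0.565% in HK2 KO, 6.90% against 2.84% and 0.27% against 0.667% in PGP KO). Of 9 T and NK markers 8 are in the table and NKG7 alone was tested, and their summed level was 9.19 to 12.9 CPM in wild type DMSO, 10.5 to 15.1 CPM at 6 h and 32.5 to 35.3 CPM at 24 h, with CD3G and KLRD1 at 0 in these wild type groups. The part of these shares and markers in the results below was not tested.

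Promoter sequence is shown for 4 members, because 3 of them (ATF3, MAFF and JUND) rose under ironomycin and JUN, the archetype of the family, was not called in any comparison. Each window is the RefSeq sense strand on GRCh38.p14, from 250 bases before the annotated start to 50 bases after it, and capitals mark letters that match a searched motif. RefSeq windows were found for 9 of the 10 members (11 windows), and FOSL1 had none. The table of counts was built on hg19, so these positions are not those of the counted tags. ATF3 and MAFF each had a further window, which is not shown. Tags at transcript 3′ ends do not show which start was used, or whether it lies in a window searched.
ATF3, upstream start, chr1:212565157-212565456, plus strand: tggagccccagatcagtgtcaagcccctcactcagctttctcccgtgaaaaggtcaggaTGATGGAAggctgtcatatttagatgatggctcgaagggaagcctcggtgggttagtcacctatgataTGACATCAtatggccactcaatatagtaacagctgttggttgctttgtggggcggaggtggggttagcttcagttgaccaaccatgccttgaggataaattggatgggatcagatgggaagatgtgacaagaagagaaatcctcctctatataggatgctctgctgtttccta
MAFF, first start, chr22:38201744-38202043, plus strand: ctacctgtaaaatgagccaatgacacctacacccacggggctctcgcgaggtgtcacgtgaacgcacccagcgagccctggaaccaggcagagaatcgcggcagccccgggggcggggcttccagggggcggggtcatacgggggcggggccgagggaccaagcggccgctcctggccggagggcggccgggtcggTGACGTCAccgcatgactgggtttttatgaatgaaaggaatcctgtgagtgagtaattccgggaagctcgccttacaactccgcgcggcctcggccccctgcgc
JUND, chr19:18281573-18281872, minus strand: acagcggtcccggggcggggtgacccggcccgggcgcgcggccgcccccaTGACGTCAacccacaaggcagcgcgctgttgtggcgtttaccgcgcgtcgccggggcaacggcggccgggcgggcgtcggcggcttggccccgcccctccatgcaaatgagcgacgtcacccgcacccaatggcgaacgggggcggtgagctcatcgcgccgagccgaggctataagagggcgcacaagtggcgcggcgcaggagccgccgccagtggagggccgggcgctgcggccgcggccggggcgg
JUN, chr1:58783998-58784297, minus strand: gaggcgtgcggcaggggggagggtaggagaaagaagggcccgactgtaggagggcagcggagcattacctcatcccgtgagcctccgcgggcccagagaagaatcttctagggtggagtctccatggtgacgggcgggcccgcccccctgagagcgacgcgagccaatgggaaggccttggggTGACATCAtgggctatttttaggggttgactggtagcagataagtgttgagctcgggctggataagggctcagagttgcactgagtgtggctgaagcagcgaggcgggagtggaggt

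The motifs were searched on both strands by their letters. The palindrome TGACGTCA, the cyclic AMP response element, occurred in the JUND window at -200 and in the first MAFF window at -54, counted from the start site, and in 1.85% of all 35116 windows. TGACATCA, the variant known from the JUN promoter, occurred in JUN at -67 and in the upstream ATF3 window at -123, and in 2.61% of all windows. TGATGNAA, the C/EBP-ATF composite element, occurred in the same ATF3 window at -191 as TGATGGAA, and in 3.62% of all windows. TGANTCA, the TPA response element that gave AP-1 its first known site, occurred in FOSL2 alone among the members, at 5 bases after the start, and in 7.71% of all windows. TATAAA occurred in FOS, FOSB and JUNB at -33, -30 and -31 and in the second ATF3 window at -230, and in 11.5% of all windows. BATF held none of the motifs. A match describes letters in a window and is not evidence of binding.

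Of the 10 members, ATF3 and MAFF rose in wild type cells at 6 h, and ATF3, MAFF and JUND rose at 24 h, in wild type cells and in both knockouts. BATF was called lower at 24 h in wild type and PGP KO cells, and both calls were lost when certain single libraries were left out, the wild type call also in DESeq2. FOS, FOSB, FOSL1, FOSL2, JUN and JUNB were called in no comparison with all libraries. A gene counted as called when edgeR's quasi-likelihood test gave it an adjusted p (Benjamini-Hochberg, over all 11610 genes) under 0.05. At 6 h 2 of 10 members were called higher and 0 lower (by edgeR and by DESeq2, and 0 lower at an unadjusted edgeR p under 0.05), where 22.0% of all tested genes were called, 10.9% higher and 11.1% lower. At 24 h 3 were called higher and 1 lower, where 29.8% of all tested genes were called, 15.3% higher and 14.6% lower. At 24 h HK2 KO cells had 3 members called higher and 0 lower (DESeq2 also 0 lower, and 0 lower at an unadjusted edgeR p under 0.05), where 29.4% of all tested genes were called, 15.9% higher and 13.5% lower. PGP KO cells had 3 higher and 1 lower, where 31.5% were called, 16.1% higher and 15.4% lower. In wild type cells the members' median log2 difference was 0.08 at 6 h and 0.34 at 24 h, against 0.02 and 0.03 over all tested genes. Both at 6 h and at 24 h, in every line, the members' total count was near what the background share gives for 10 genes, so none of these counts is a result about the members as a set.

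**Figure D1:**
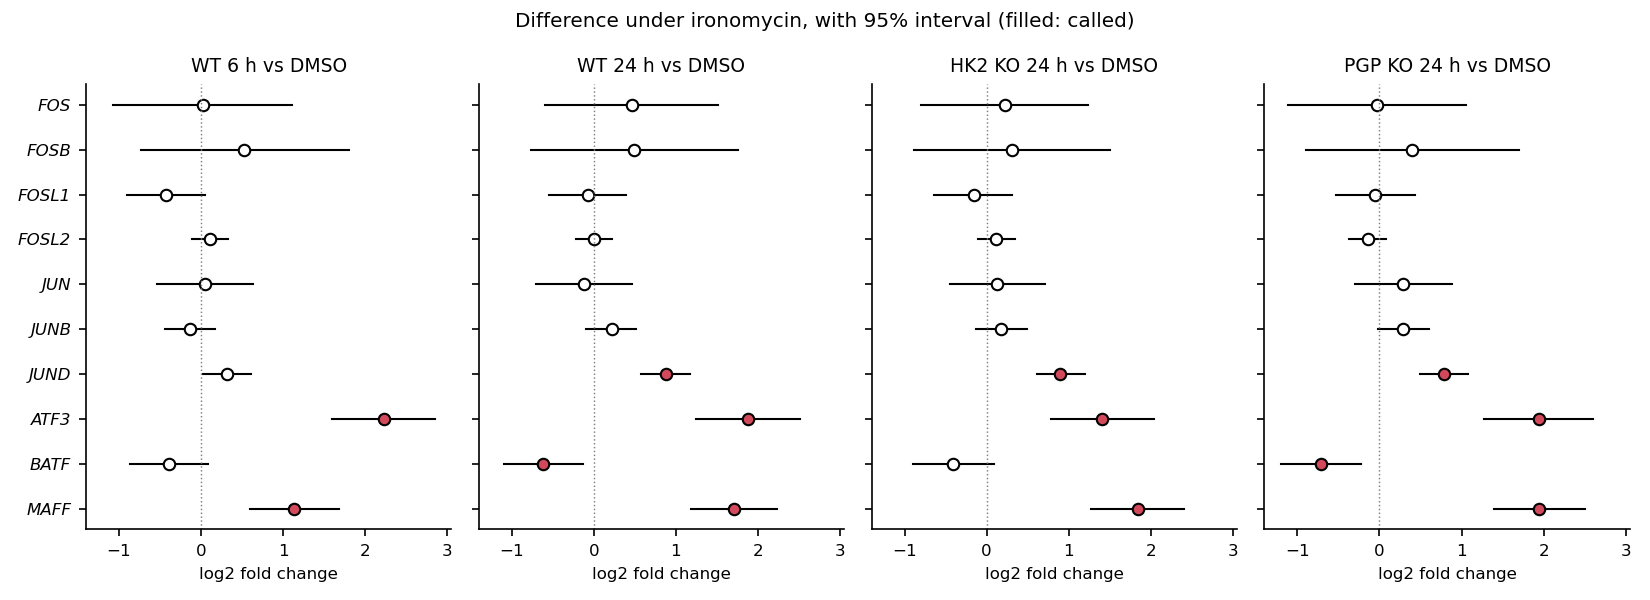
Log2 fold change of each of the 10 AP-1 genes (rows) in wild type cells at 6 h and 24 h and in the HK2 and PGP knockouts at 24 h, each against its own DMSO, with 95% intervals; red points were called. ATF3 and MAFF lie to the right of 0 in all 4 panels, JUND is called in the 3 panels at 24 h, and the intervals of FOS and FOSB are the widest.

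ATF3 (ENSG00000162772), a stress-induced factor that acts mostly as a repressor, had the largest rise of the members at 6 h. Its level was 2.09, 6.47 and 5.47 CPM in the 3 wild type DMSO libraries, 18.1, 21 and 27.2 CPM at 6 h, and 21.4, 14.5 and 16.3 CPM at 24 h. Every treated library lay above every DMSO library, and DMSO replicate 1 was the lowest, with 10 counts. The log2 difference from DMSO was 2.23 ± 0.30 (SE; 4.68-fold, edgeR adjusted p = 1.42e-05) at 6 h and 1.88 ± 0.30 (3.67-fold, edgeR adjusted p = 5.79e-05) at 24 h. Without the library that stood apart, the 6 h difference was 2.26 (edgeR adjusted p = 1.83e-05). From 6 h to 24 h the difference was -0.35 ± 0.26 (edgeR adjusted p = 0.391) and the libraries overlapped, so no further change was detectable.

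The same direction held for ATF3 in both knockouts. In HK2 KO cells the DMSO libraries stood at 6.03, 4.07 and 5.96 CPM and the 24 h libraries at 13.3, 17.3 and 11.9 CPM. In PGP KO cells the values were 3.48, 5.95 and 3.07 CPM in DMSO and 20.9, 13.9 and 13.6 CPM at 24 h. Treated and DMSO libraries did not overlap in either line, with log2 differences of 1.41 ± 0.31 (edgeR adjusted p = 0.00127) and 1.94 ± 0.32 (edgeR adjusted p = 7.17e-05).

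MAFF (ENSG00000185022), the small MAF protein, also rose at both times. Wild type DMSO libraries stood at 2.92, 4.38 and 3.32 CPM, those at 6 h at 6.19, 9.60 and 7.69 CPM, and those at 24 h at 8.01, 12.1 and 14.6 CPM. The 6 h and 24 h libraries were all above DMSO and overlapped each other. MAFF's log2 difference was 1.14 ± 0.26 (2.21-fold, edgeR adjusted p = 0.00299) at 6 h, 0.97 (edgeR adjusted p = 0.0189) without the library that stood apart, and 1.71 ± 0.25 (3.26-fold, edgeR adjusted p = 1.92e-05) at 24 h. From 6 h to 24 h it was 0.57 ± 0.23 (edgeR adjusted p = 0.0968), which passed the threshold only without wild type 24 h replicate 1 (edgeR adjusted p = 0.0344).

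In HK2 KO cells MAFF stood at 2.23, 2.55 and 2.11 CPM in DMSO and at 7.83, 7.70 and 9.39 CPM at 24 h (log2 difference 1.84 ± 0.28, edgeR adjusted p = 2.76e-05). In PGP KO cells it stood at 2.14, 3.40 and 3.07 CPM in DMSO and at 11.5, 12.3 and 10.1 CPM at 24 h (1.95 ± 0.27, edgeR adjusted p = 7.92e-06). Within each line the treated libraries were all above the DMSO libraries. MAFF lies opposite the gene PLA2G6 on the other strand in GENCODE 29, and how strand was treated in counting is not stated, so reads from the 2 genes cannot be told apart with certainty. PLA2G6 itself had 353 counts over all libraries.

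JUND (ENSG00000130522), the JUN protein known for steady expression in resting cells, was called at 24 h and not at 6 h. Wild type DMSO libraries stood at 268, 247 and 258 CPM, those at 6 h at 273, 365 and 327 CPM, and those at 24 h at 562, 396 and 462 CPM. The lowest 6 h library was just above the highest DMSO library, and every 24 h library was above every 6 h library. The log2 difference from DMSO was 0.32 ± 0.14 (edgeR adjusted p = 0.112) at 6 h and 0.88 ± 0.14 (1.83-fold, edgeR adjusted p = 5.46e-05) at 24 h. At 6 h the adjusted p was 0.045 without wild type 6 h replicate 1 and 0.342 without replicate 2 of that group, by the same edgeR test.

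Between 6 h and 24 h JUND rose by a log2 difference of 0.56 ± 0.14 (edgeR adjusted p = 0.0079), the only call among the members in that comparison, where 16.6% of all tested genes were called, 8.48% higher and 8.08% lower; 0 members were called lower by edgeR or DESeq2, and 0 were lower at an unadjusted edgeR p under 0.05. The JUND call was lost when only the compared groups were fitted (edgeR adjusted p = 0.0754), without wild type 6 h replicate 1 (0.0602) and without wild type 24 h replicate 1 (0.0735). No DMSO sample is tied to either time, so time in culture and treatment cannot be told apart in it.

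JUND also rose at 24 h in both knockouts. HK2 KO libraries stood at 263, 246 and 283 CPM in DMSO and at 580, 462 and 440 CPM at 24 h (log2 difference 0.90 ± 0.14, edgeR adjusted p = 4.33e-05). PGP KO libraries stood at 283, 221 and 255 CPM in DMSO and at 476, 369 and 464 CPM at 24 h (0.79 ± 0.14, edgeR adjusted p = 0.000172). In both lines the lowest treated library was above the highest DMSO library.

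BATF (ENSG00000156127), which pairs with JUN proteins and cooperates with IRF factors in lymphoid and dendritic cells, was the only member called lower in any comparison. Its level was 15.7, 21.5 and 17.6 CPM in wild type DMSO, 10.2, 15.9 and 15.6 CPM at 6 h, and 8.83, 15.7 and 11.1 CPM at 24 h. The second 24 h library reached the lowest DMSO library, so these groups met. For BATF the log2 difference was -0.39 ± 0.23 (edgeR adjusted p = 0.244) at 6 h and -0.62 ± 0.23 (edgeR adjusted p = 0.0496) at 24 h. The 24 h call was lost in DESeq2 (adjusted p = 0.0525) and when 1 library was left out: wild type DMSO replicate 2 (edgeR adjusted p = 0.169) or 3 (0.0731), or wild type 24 h replicate 1 (0.194) or 3 (0.119). With the replicate number added to the model as a block, the call was kept (-0.63 ± 0.18, edgeR adjusted p = 0.00889).

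In PGP KO cells BATF stood at 20.1, 18.7 and 21.3 CPM in DMSO and at 10.7, 15.1 and 10.9 CPM at 24 h, with no overlap (log2 difference -0.71 ± 0.24, edgeR adjusted p = 0.024). That call was lost without PGP KO DMSO replicate 3 (edgeR adjusted p = 0.0668) and without 24 h replicate 1 (0.08) or 3 (0.0772). In HK2 KO cells it stood at 10.0, 16.3 and 17.1 CPM in DMSO and at 9.26, 13.3 and 10.4 CPM at 24 h, which overlapped (-0.41 ± 0.24, edgeR adjusted p = 0.219). The summed level of 10 B-lymphoid markers, 3 of them tested and 3 at 0 in wild type DMSO, was 29.4 to 56.8 CPM in wild type DMSO and 11.9 to 20.3 CPM at 24 h. It was 39.9 to 65 CPM and 9.99 to 19.5 CPM in PGP KO cells, and 24.3 to 47.7 CPM and 13.1 to 16.6 CPM in HK2 KO cells, where BATF was not called. In wild type cells at 24 h IGLL1 was called lower and PAX5 and EBF1 higher. Of the 3 tested, HK2 KO cells at 24 h had 2 called higher and 1 lower (15.9% and 13.5% of all tested genes). PGP KO cells had 1 called higher and 1 lower (16.1% and 15.4% of all tested genes). The part of these markers in the BATF result was not tested. Fewer cells of a type and less RNA per cell cannot be told apart in these bulk samples.

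**Figure D2:**
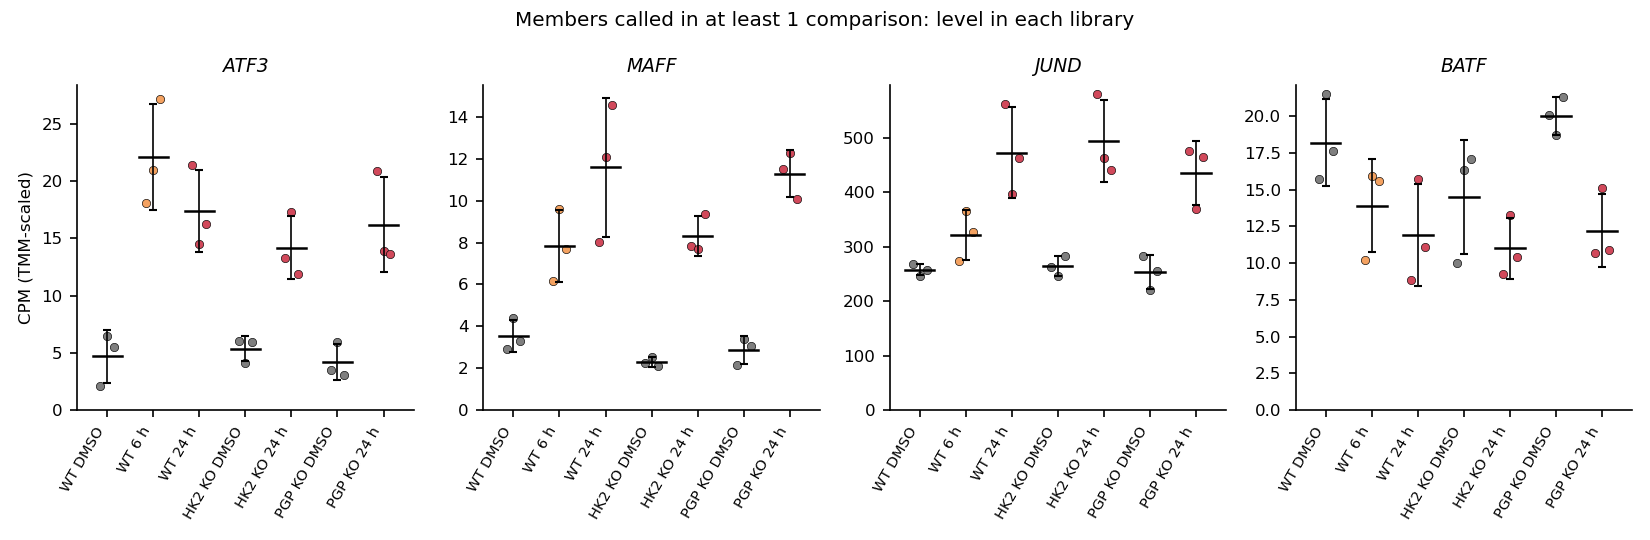
CPM (vertical axis, linear from 0) of ATF3, MAFF, JUND and BATF in each of the 21 libraries; points are libraries, long lines group means and bars SD (n = 3). For ATF3, MAFF and JUND the 24 h points of each line lie above that line's DMSO points, and for BATF they lie lower with overlap in wild type and HK2 KO cells.

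JUNB, a JUN protein that often restrains JUN, and JUN, the strongest activator of the 3, were not called. JUNB stood at 121, 96.2 and 106 CPM in wild type DMSO, at 109, 68.3 and 118 CPM at 6 h and at 113, 138 and 125 CPM at 24 h. The groups overlapped, and the low 6 h value came from the library that stood apart. JUNB differed from DMSO by -0.13 ± 0.15 log2 units (interval -0.44 to 0.17) at 6 h, by 0.067 without that library, and 0.22 ± 0.15 (-0.09 to 0.52, edgeR adjusted p = 0.287) at 24 h. In PGP KO cells JUNB stood at 111, 95 and 100 CPM in DMSO and at 126, 125 and 123 CPM at 24 h, without overlap, and was not called (0.29 ± 0.15, edgeR adjusted p = 0.146). From 6 h to 24 h in wild type cells JUNB differed by 0.35 ± 0.15 (edgeR adjusted p = 0.11), and was called higher without wild type 6 h replicate 3 (0.48, edgeR adjusted p = 0.035). JUNB overlaps HOOK2 (2860 counts over all libraries) on the opposite strand, so its counts are uncertain in the same way.

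JUN stood at 10.0, 11.5 and 16.3 CPM in wild type DMSO, at 10.0, 11.3 and 17.8 CPM at 6 h and at 10.1, 7.74 and 17.1 CPM at 24 h. The 3 groups covered nearly the same range. The log2 difference was 0.05 ± 0.28 (interval -0.53 to 0.63) at 6 h and -0.12 ± 0.28 (-0.70 to 0.46) at 24 h. Changes of JUN within these intervals are not excluded. In the knockouts JUN lay between 9.78 and 18.8 CPM in all 12 libraries.

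The make-up of the JUN tags shifted with JUND. Of the counts of the 3 JUN genes, JUND gave 68.2% ± 1.31 (67.2% to 69.7%) in wild type DMSO. Ironomycin libraries had JUND at 74.2% ± 6.89 after 6 h (69.7% to 82.1%, the highest being the library that stood apart) and at 77.2% ± 4.54 after 24 h (73.0% to 82.0%). It gave 68.3% ± 2.06 in HK2 KO DMSO and 78.0% ± 3.76 at 24 h, and 68.8% ± 1.63 in PGP KO DMSO and 75.6% ± 2.59 at 24 h. The 3 shares make up a whole, so the rest must fall when JUND's share rises. JUNB's share was 28.4% ± 1.67 in wild type DMSO and 20.9% ± 4.50 at 24 h, while its level was 108 ± 12.4 and 125 ± 12.6 CPM. These shares rest on the same counts as the tests above and are a description, and tags of different genes are not calibrated against each other.

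**Figure D3:**
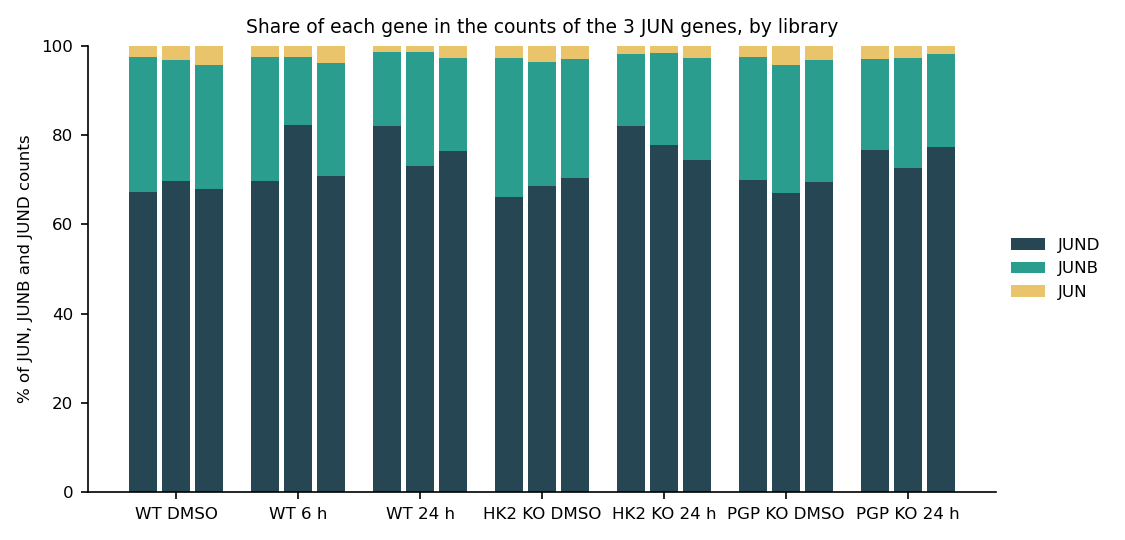
Share of each JUN gene (vertical axis, % of the JUN, JUNB and JUND counts of a library) in the 21 libraries, 3 bars per group. The JUND part covers 66.2% to 70.3% in the 9 DMSO libraries and 72.6% to 82.0% in the 9 libraries at 24 h.

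Among the FOS proteins, the partners that JUN proteins need for the classical complex, no gene was called. FOS itself stood at 8.14, 6.47 and 4.98 CPM in wild type DMSO, at 10.2, 1.31 and 8.06 CPM at 6 h and at 5.75, 7.74 and 13.2 CPM at 24 h. Its groups overlapped, and the low 6 h value of 6 counts came from the library that stood apart. FOS differed by 0.02 ± 0.53 log2 units (interval -1.07 to 1.11) at 6 h and by 0.46 ± 0.51 (-0.59 to 1.52) at 24 h, so a 2-fold change in either direction lay within the 6 h interval. Without the library that stood apart the 6 h value was 0.49 (edgeR adjusted p = 0.519).

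FOS had the largest spread between replicates of the members. Its highest and lowest libraries within a group differed by up to 7.82-fold (wild type at 6 h), and its biological coefficient of variation of 0.415 was larger than that of 98.8% of tested genes. FOS stood at 15.2, 6.11 and 5.19 CPM in HK2 KO DMSO and at 11.8, 2.34 and 9 CPM in PGP KO DMSO, so the spread was not limited to treated cells. FOSB followed with a coefficient of 0.356, larger than in 97.3% of tested genes. FOSL2 lay at the other end, with 0.0847, larger than in 1.7%.

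FOSB, the closest relative of FOS, had 2 to 15 counts per library. It stood at 0.835, 1.46 and 1.33 CPM in wild type DMSO, at 2.13, 0.873 and 2.25 CPM at 6 h and at 0.822, 1.39 and 2.92 CPM at 24 h, with log2 differences of 0.53 ± 0.61 and 0.49 ± 0.61. The intervals were -0.73 to 1.80 at 6 h and -0.77 to 1.76 at 24 h, so a change of FOSB within these limits is not excluded. FOSB also overlaps ERCC1 on the opposite strand, a gene with 7128 counts over all libraries, so its few counts are uncertain.

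FOSL1, or FRA1, a FOS protein without a transactivation domain of the FOS kind, stood at 21.1, 15.7 and 20.2 CPM in wild type DMSO, at 14.1, 12.7 and 15.6 CPM at 6 h and at 18.5, 17.5 and 18.3 CPM at 24 h. The 6 h libraries lay just below the lowest DMSO library, and the 24 h libraries were within the DMSO range. The log2 difference was -0.43 ± 0.23 (edgeR adjusted p = 0.192) at 6 h and -0.07 ± 0.22 (edgeR adjusted p = 0.846) at 24 h.

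FOSL2, or FRA2, the other FOS protein of that kind, had the smallest spread of the members. It stood at 68.1, 67.6 and 68.7 CPM in wild type DMSO, at 73.9, 74.4 and 72.2 CPM at 6 h and at 67.6, 71.0 and 65.9 CPM at 24 h. The 3 libraries at 6 h lay just above those in DMSO, and all 21 libraries lay between 61.8 and 83.2 CPM. The log2 difference was 0.11 ± 0.11 (interval -0.11 to 0.33) at 6 h and 0.00 ± 0.11 (-0.22 to 0.22) at 24 h. FOSL2 shares its locus with AC104695.3 on the same strand (266 counts over all libraries) and FLJ31356 on the other (2 counts).

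**Figure D4:**
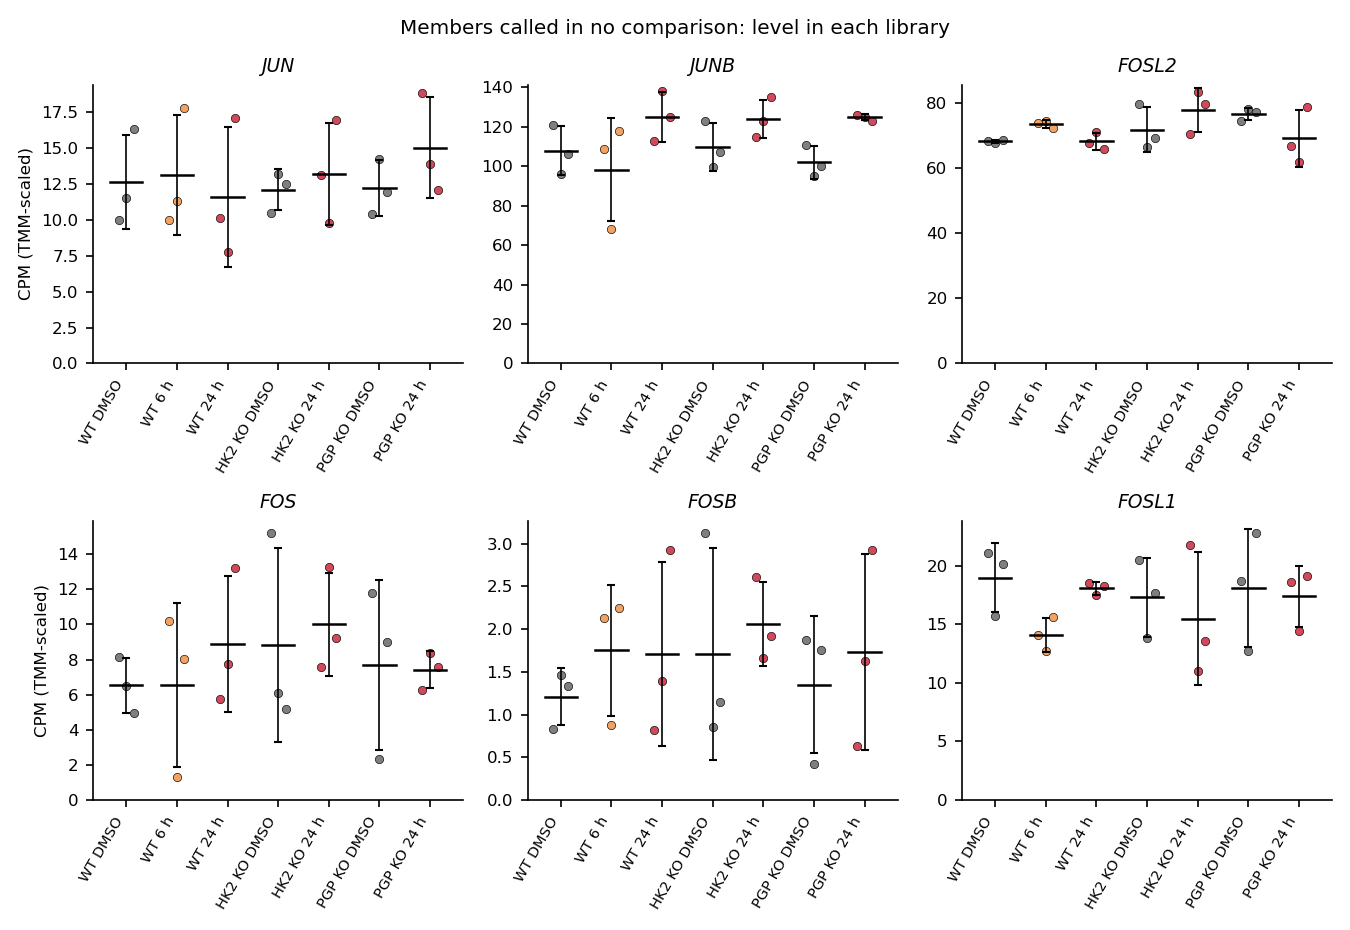
CPM (vertical axis, linear from 0) of JUN, JUNB, FOSL2, FOS, FOSB and FOSL1 in each of the 21 libraries; points are libraries, long lines group means and bars SD (n = 3). FOSL2 stays between 61.8 and 83.2 CPM, while FOS ranges from 1.31 to 15.2 CPM with overlap between groups.

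No member differed between a knockout and wild type in DMSO by the test. In HK2 KO cells 0 of 10 were called by edgeR and by DESeq2, and 0 had an unadjusted edgeR p under 0.05, where 0.00861% of all tested genes, 1 gene, was called. In PGP KO cells 0 of 10 were called by both tools, also with 0 at an unadjusted edgeR p under 0.05, where 0.00% of tested genes were called. The nearest to a difference was MAFF in HK2 KO cells, whose DMSO libraries of 2.23, 2.55 and 2.11 CPM all lay below the wild type ones (log2 difference -0.61 ± 0.30, interval -1.24 to 0.02, edgeR adjusted p = 0.963). For ATF3 the interval was -0.54 to 0.88 in HK2 KO and -0.91 to 0.59 in PGP KO cells, and for JUND it was -0.26 to 0.32 and -0.32 to 0.26.

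The 24 h response of the members did not differ by the test between either knockout and wild type. In each case 0 of 10 were called by edgeR and by DESeq2, 0 had an unadjusted edgeR p under 0.05, and 0.00% of all tested genes were called. The difference in the ATF3 response was -0.47 ± 0.44 (interval -1.37 to 0.44) for HK2 KO and 0.06 ± 0.45 (-0.87 to 0.99) for PGP KO cells. For MAFF it was 0.13 ± 0.37 (-0.64 to 0.91) and 0.24 ± 0.37 (-0.53 to 1.02). For JUND it was 0.03 ± 0.20 (-0.38 to 0.44) and -0.09 ± 0.20 (-0.50 to 0.32), the tightest limits among the called members. For BATF it was 0.21 ± 0.34 (-0.48 to 0.91) and -0.10 ± 0.33 (-0.79 to 0.59). These intervals do not show that the lines respond alike.

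Among the other bZIP factors, many of which can pair with AP-1 proteins, ATF5, DDIT3 and JDP2 rose at both times with the smallest adjusted p. Of 37 on the list 29 were tested, with 12 called higher and 1 lower at 6 h (median log2 difference 0.43, against 0.02 over all tested genes) and 14 higher and 1 lower at 24 h (0.56 against 0.03). Over all tested genes 10.9% were called higher and 11.1% lower at 6 h, and 15.3% higher and 14.6% lower at 24 h. When only the compared groups were fitted, and without wild type DMSO replicate 2, 7 were called higher at 6 h. TEF was the gene called lower at 6 h and CREB1 the gene called lower at 24 h, both named after their values were seen. The CREB1 call was lost without any 1 of the wild type DMSO replicates or of 24 h replicates 2 and 3. ATF5, a factor of amino acid and mitochondrial stress, stood at 171 ± 24.9 CPM in wild type DMSO and 926 ± 175 CPM at 6 h (log2 difference 2.43 ± 0.15, edgeR adjusted p = 4.28e-10). DDIT3, or CHOP, a stress factor of the C/EBP family, stood at 6.98 ± 0.938 CPM in DMSO, 54.3 ± 12.2 CPM at 6 h (2.96 ± 0.21, edgeR adjusted p = 1.6e-09) and 23.0 ± 0.642 CPM at 24 h (1.71 ± 0.21, edgeR adjusted p = 2.36e-06).

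Several partners of the members were also called. JDP2, a repressor that is the closest relative of ATF3 and lies near FOS on its chromosome, rose from 11.9 ± 2.52 CPM to 57.4 ± 15.2 CPM at 6 h (2.26 ± 0.21, edgeR adjusted p = 7.17e-08) and stood at 44.8 ± 4.73 CPM at 24 h (1.91 ± 0.21, edgeR adjusted p = 3.4e-07). ATF4, the activator of the integrated stress response that is known to drive ATF3 and DDIT3, rose by 1.39 ± 0.18 at 6 h (edgeR adjusted p = 1e-05) and by 1.08 ± 0.18 at 24 h (edgeR adjusted p = 8.98e-05). CEBPB rose by 1.21 ± 0.24 and 1.62 ± 0.24 (edgeR adjusted p = 0.000784 and 1.79e-05).

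CEBPG, a C/EBP protein that pairs with ATF4, was called at both times at 0.55 ± 0.17 and 0.58 ± 0.17 (edgeR adjusted p = 0.0243 and 0.0127). Dropping wild type DMSO replicate 1 ended both calls (edgeR adjusted p = 0.0861 at 6 h and 0.0586 at 24 h), as did dropping replicate 2 (0.1 and 0.0712). The 6 h call also ended without 6 h replicate 1 (0.111) or 3 (0.0857), the 24 h call without 24 h replicate 3 (0.0659), and the 6 h call when only the compared groups were fitted (0.117). BATF3, the relative of BATF in dendritic cells, was not called at either time (0.01 ± 0.25 and -0.29 ± 0.25, edgeR adjusted p = 0.981 and 0.416). Of the other small MAF genes, MAFG was called at 24 h (0.78 ± 0.16, edgeR adjusted p = 0.000741) and not at 6 h (0.15 ± 0.16, edgeR adjusted p = 0.547), and MAFK was too low to be tested.

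**Figure D5:**
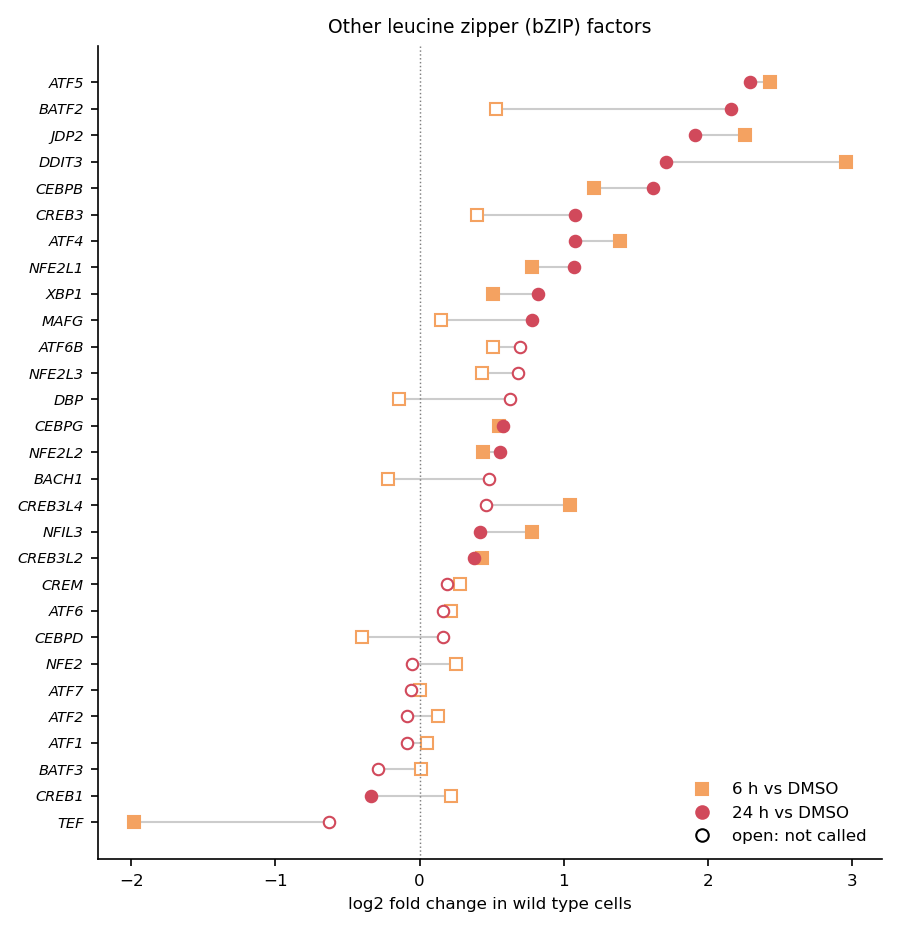
Log2 fold change of the 29 tested bZIP factors outside the 10 members (rows) in wild type cells at 6 h (squares) and 24 h (circles) against DMSO; filled symbols were called. 12 factors are called higher at 6 h and 14 at 24 h, and 1 is called lower at each time.

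The MAP kinase and serum response genes, which carry the signals that switch on FOS and JUN, gave no more calls at 6 h than the background of 22.0% and about as many at 24 h as that of 29.8%, so the counts are no result about the list. Of 32 tested, 2 were higher and 2 lower at 6 h, and 4 were higher and 7 lower at 24 h, with medians of -0.09 and 0.04 against 0.02 and 0.03 over all tested genes. At 24 h the higher count was 2 without wild type DMSO replicate 1 or 3 or any 1 of the 24 h replicates, and the lower count was 4 without DMSO replicate 2 or 24 h replicate 1 or 3. At 6 h the lower count was 1 without DMSO replicate 2 and 4 with RLE size factors. MAP2K3, a kinase that activates p38, stood at 78.3 ± 3.95 CPM in wild type DMSO, 33.7 ± 12.8 CPM at 6 h (-1.21 ± 0.20, edgeR adjusted p = 0.000141; -0.93 without the library that stood apart) and 67.5 ± 11.1 CPM at 24 h. MAP3K2 rose at both times (0.58 ± 0.11 and 0.48 ± 0.11, edgeR adjusted p = 0.000616 and 0.00211). MAP2K5 rose at 6 h (0.76 ± 0.19, edgeR adjusted p = 0.00586), a call lost when only the compared groups were fitted (0.0671). At 24 h MAP3K20 fell (-0.51 ± 0.10, edgeR adjusted p = 0.000633), as did MRTFA, an actin-regulated partner of serum response factor (-0.63 ± 0.17, edgeR adjusted p = 0.00743).

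Among other immediate early genes PPP1R15A and KLF6 rose at both times. Of 19 tested, 5 were higher and 1 lower at 6 h (median 0.30 against 0.02 over all tested genes, of which 10.9% were called higher). At 24 h 9 were higher and 0 lower (median 0.54 against 0.03, with 15.3% of all tested genes called higher; 0 lower also at an unadjusted edgeR p under 0.05). At 6 h 8 were called higher without wild type 6 h replicate 2 and 2 without replicate 3, while the lower count was 0 without 6 h replicate 2 or DMSO replicate 1 or 3 and 2 without 6 h replicate 3. PPP1R15A, or GADD34, which reverses the stress block on translation, rose by 1.77 ± 0.15 at 6 h and 1.55 ± 0.15 at 24 h (edgeR adjusted p = 3.87e-08 and 1.01e-07). BTG1 rose by 1.64 ± 0.16 at 6 h (edgeR adjusted p = 1.25e-07), and KLF6 by 0.92 ± 0.23 and 1.26 ± 0.23 (edgeR adjusted p = 0.00585 and 0.000172). The KLF6 call at 6 h was lost without 6 h replicate 3 (edgeR adjusted p = 0.0509) and when only the compared groups were fitted (0.0574). RHOB went from 9 counts over the wild type DMSO group to 88 at 24 h (3.27 ± 0.59, edgeR adjusted p = 0.00018).

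Genes known from textbooks as AP-1 targets were called higher in 2 of 18 tested and lower in 1 at 6 h (median 0.18 against 0.02 over all tested genes), where 10.9% of all tested genes were called higher, so the 6 h count is near the background. At 24 h 6 were higher and 2 lower (median 0.55 against 0.03), where 15.3% of all tested genes were called higher and 14.6% lower. The higher count at 6 h was 1 without any 1 of the DMSO replicates or 6 h replicate 3, and the lower count was 0 without DMSO replicate 1 or 3 or 6 h replicate 2 and 2 without 6 h replicate 3. The lower count at 24 h was 1 without DMSO replicate 1 or 2 or 24 h replicate 2 or 3. VEGFA, the angiogenic growth factor, stood at 16.3 ± 6.15 CPM in wild type DMSO, 70.3 ± 23.3 CPM at 6 h (2.09 ± 0.27, edgeR adjusted p = 6.75e-06) and 106 ± 7.99 CPM at 24 h (2.68 ± 0.27, edgeR adjusted p = 1.01e-07). CCL2, a monocyte chemokine, stood at 5.98 ± 3.49 CPM in DMSO and 41.8 ± 11.2 CPM at 24 h (2.77 ± 0.46, edgeR adjusted p = 7.22e-05). PLAUR, the urokinase receptor, was called lower at 6 h (-0.69 ± 0.24, edgeR adjusted p = 0.0438), but not without the library that stood apart (-0.35, edgeR adjusted p = 0.168), without wild type DMSO replicate 1 (0.106) or 3 (0.102), or when only the compared groups were fitted (0.199). Levels of these genes do not measure AP-1 activity, and the part of AP-1 in them was not tested.

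The genes whose pattern over the 7 group means was most like that of a called member were found among the 9134 tested genes whose mean reached 5 CPM, by the root mean square difference of centred log2 levels. For JUND these were COPA, DMXL2 and PAN2 (0.060, 0.061 and 0.062, on a JUND range of 0.96). COPA, a coat protein of Golgi vesicles, stood at 108 ± 6.35 CPM in wild type DMSO, 135 ± 19.1 CPM at 6 h and 203 ± 9.54 CPM at 24 h. For ATF3 they were FBXO32, APOL6 and PLEKHF1 (0.143, 0.146 and 0.151, on a range of 2.33). FBXO32, a ubiquitin ligase subunit known from muscle atrophy, stood at 7.55 ± 0.813 CPM in wild type DMSO, 29.7 ± 4.18 CPM at 6 h and 23.6 ± 3.76 CPM at 24 h.

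For MAFF the nearest were COL7A1, WARS1 and SEC24D (0.102, 0.142 and 0.152, on a range of 2.11). WARS1, the cytoplasmic tryptophan transfer RNA synthetase, stood at 45.7 ± 11.2, 112 ± 9.47 and 137 ± 13.6 CPM in the same 3 groups. For BATF they were MRTFA, CIAPIN1 and DCPS (0.066, 0.070 and 0.071, on a range of 0.86), of which MRTFA is also on the MAP kinase and serum response list. CIAPIN1, a protein of cytosolic iron-sulphur cluster assembly, stood at 67.0 ± 2.02, 47.2 ± 3.50 and 38.1 ± 1.27 CPM. These likenesses describe group means of the same libraries and carry no test. With a prior count of 0.5 in place of 2, LPO replaced FBXO32 and SLC2A3 replaced SEC24D.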

How the data were processed

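Transcript 3′ ends were measured in 21 libraries (7 groups of 3). Per the labels' protocols, RNA was prepared with Qiagen RNeasy and libraries with the Lexogen QuantSeq 3′ kit. Per the submitters' processing notes, bcl2fastq 2.20.0.422, HISAT2 and HTSeq were used with hg19. The deposited values are whole-number read counts for each Ensembl gene, not normalized by the authors. How strand was handled in counting is not given in the sources used here, so genes that overlap another are uncertain.

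Counts were fitted in edgeR 4.0.16 (R 4.3.3) with TMM scaling, filterByExpr by group (minimum count 10, minimum total 15), and 1 quasi-likelihood model with a mean per group over all 21 libraries. Each contrast was adjusted by Benjamini-Hochberg over 11610 genes, and called under 0.05. CPM are counts over TMM-scaled totals. Intervals are 95%. Spread is edgeR's biological coefficient of variation per gene (0.149 common to all genes). Symbols came from a gene table, overlaps from GENCODE 29, promoters from RefSeq on GRCh38.p14. Figures used matplotlib 3.10.9.

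The 10 members, the companion lists and the tests were chosen with earlier results of these data known. All members are named. From each companion list the 3 called genes with the smallest adjusted p at 6 h and at 24 h in wild type cells are named, with ATF4, DDIT3, CEBPB, CEBPG, JDP2, BATF3, MAFG and MAFK as partners, and for each called member the 3 genes of most like pattern. A gene that this rule picks is not reported here.

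Alternatives were DESeq2 1.42.0, RLE size factors, a replicate block, testing without the low-count filter, fitting only the compared groups, and leaving out each library. For the companion lists they were added after the data were seen. The replicate numbers come from the sample titles, which do not say what they mark. In PGP KO cells the deviations of same-numbered libraries, DMSO against 24 h, correlated at 0.168 to 0.253, all above 0.1. In the other comparisons at least 1 pair lay at 0.1 or lower, though some pairs lay higher. The range was 0.0488 to 0.355 for wild type DMSO against 6 h and 0.0501 to 0.239 for DMSO against 24 h. It was 0.00193 to 0.184 for wild type 6 h against 24 h, and -0.0391 to 0.125 for HK2 KO DMSO against 24 h. The main tests used group means without pairs, also in PGP KO cells, and only the replicate block took the numbers into account.

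The test was tried on simulated data with known changes among 11610 genes. For wild type cells at 24 h, 98 of 100 simulated 4-fold changes and 75 of 100 simulated 2-fold changes were called, beside 14 false calls. Far fewer genes were changed than were called in the data, and no replicate effect was simulated. Genes as low as FOSB were not among those changed, so these rates are not the power for each member.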

Additional observations from a re-analysis of the deposited data

How the results depend on the processing

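The number of members called higher was 3 at 24 h in each line under every alternative run. At 6 h it was 2, and 3 without wild type 6 h replicate 1, where JUND was called. The number called lower at 24 h in wild type cells was 1, 0 in DESeq2, and 0 to 1 on leaving out a library; in PGP KO cells it was 1, and 0 to 1 on leaving out a library. The number called higher from 6 h to 24 h was 1, 0 when only the compared groups were fitted, and 0 to 2 on leaving out a library. The causes were not tested.

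Members that were not called changed sign with the setting. FOS at 6 h was -0.023 with the replicate block and -0.001 in DESeq2. FOSL2 at 24 h was -0.010 with RLE size factors, -0.023 with no low-count filter, -0.002 when only the compared groups were fitted and -0.011 in DESeq2. On leaving out each library, the log2 values at 6 h ran from -0.43 to 0.49 for FOS, -0.24 to 0.28 for JUN and -0.28 to 0.067 for JUNB. At 24 h they ran from -0.15 to 0.81 for FOSB, -0.044 to -0.000 for FOSL2 and -0.54 to 0.10 for JUN. Between HK2 KO and wild type in DMSO they ran from -0.018 to 0.080 for JUND and -0.160 to 0.441 for ATF3, and for PGP KO from -0.117 to 0.060 and -0.528 to 0.107. For the difference in 24 h response they ran, in HK2 KO, from -0.094 to 0.166 for JUND and -0.073 to 0.344 for MAFF, and in PGP KO from -0.207 to 0.047 for JUND, -0.212 to 0.425 for ATF3 and -0.274 to 0.147 for BATF.

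With the replicate number as a block, BATF in PGP KO cells was -0.73 (edgeR adjusted p = 0.00335). In the main fit, without pairs, it was -0.71 (edgeR adjusted p = 0.024). For wild type cells at 24 h BATF was -0.63 with the block (edgeR adjusted p = 0.00889) and -0.62 without it (0.0496). For HK2 KO cells it was -0.40 with the block (edgeR adjusted p = 0.106) and -0.41 without it (0.219). The block changed no call of a member in any comparison. In the column headers, same-numbered libraries of all groups also stand together in the running sample number. What that number marks is not stated. All genes called from DMSO to 6 h numbered 2556, and 3098 with the replicate block. On leaving out a library they numbered 1776 to 2594, and when only the compared groups were fitted 1212. From 6 h to 24 h they numbered 1922, 749 in that fit, 2514 with the replicate block and 1271 to 2220 on leaving out a library. For HK2 KO against wild type in DMSO they numbered 1, 17 in that fit, 59 with no low-count filter, 19 with the replicate block, 23 in DESeq2, 8 without wild type DMSO replicate 2 and 0 without any other 1 library. For PGP KO they numbered 0, 2 in that fit and 96 with no low-count filter. Differences in response numbered 0 in both knockouts, and 17 (HK2) and 18 (PGP) with no low-count filter, and 1 (PGP) when only the compared groups were fitted. FOSB had 2 to 15 counts per library and a biological coefficient of variation of 0.356, and the parts of depth and spread in its wide interval were not tested.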
